A study of Mus musculus with 2 samples.

Results

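Platelet glycoproteins and other genes of the megakaryocyte lineage were followed through a knockdown of Lmo2 in the cell line G1E-ER-GATA-1. The set holds 10 genes, Gp1ba, Gp1bb, Gp5, Gp9, Itga2b, Pf4, Vwf, Rab27b, Plek and Treml1. They were chosen by name, as the array's gene symbol or as the current symbol of the probe's RefSeq accession, out of 14314 genes tested. The array carries 15 probes for them. All 10 genes passed the filter on dim probes, through 11 of the 15 probes, and the probe used for each of the 10 was well above background in both dyes on both arrays.

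The study compared cells given LMO2 siRNA with cells given control siRNA. G1E-ER-GATA-1 is a mouse erythroid line derived from embryonic stem cells that lack GATA-1, and it carries a GATA-1 fusion that responds to estradiol. Both arms therefore share the loss of endogenous GATA-1, the fusion, and 24 h of estradiol after transfection, and all results come from this 1 cell line. Each of 2 two-colour arrays carried RNA from both arms, always with the LMO2 siRNA arm in Cy3 and the control arm in Cy5, so a dye effect and the siRNA effect cannot be told apart. Nothing in the labels says that replicates 1 and 2 were separate cultures, so p-values reflect the spread of these samples, which may be technical.

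Megakaryocytes and erythroid cells arise from a shared progenitor and share regulators, among them GATA-1, TAL1, LDB1 and LMO2, whose complex binds GATA sites and E-boxes. In megakaryocytes GATA sites often lie near sites for ETS factors such as FLI1. The products of Gp1ba, Gp1bb, Gp9 and Gp5 assemble into the GPIb-IX-V complex, the platelet receptor for von Willebrand factor. Itga2b encodes integrin alpha IIb (CD41), which pairs with the product of Itgb3 to bind fibrinogen. Pf4 and Vwf encode cargo of platelet alpha granules, Treml1 a receptor stored in those granules, Rab27b a GTPase of granule transport, and Plek the protein kinase C substrate pleckstrin.

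The promoters of the receptor subunits are shown because these 4 genes gave different values, described after them, although their products form 1 complex. The 250 bases before each start site were taken from RefSeq's promoter table (GRCm38.p6), which matched 8 of the 10 members. They are chr11:70638872-70639121 on the plus strand for Gp1ba, chr16:30310782-30311031 on the minus strand for Gp5, chr6:87777820-87778069 on the plus strand for Gp9 and chr16:18622404-18622653 on the minus strand for Gp1bb. Capitals mark GATA words and the ETS word GGAAG, on either strand. A GATA word here is GATAA, or the longer word AGATAG, or its variant TGATAG.
Gp1ba: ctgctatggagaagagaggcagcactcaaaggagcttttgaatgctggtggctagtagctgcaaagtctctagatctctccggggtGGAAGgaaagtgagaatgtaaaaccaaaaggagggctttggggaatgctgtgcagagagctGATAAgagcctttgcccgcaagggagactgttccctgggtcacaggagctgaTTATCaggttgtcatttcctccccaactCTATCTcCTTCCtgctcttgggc
Gp5: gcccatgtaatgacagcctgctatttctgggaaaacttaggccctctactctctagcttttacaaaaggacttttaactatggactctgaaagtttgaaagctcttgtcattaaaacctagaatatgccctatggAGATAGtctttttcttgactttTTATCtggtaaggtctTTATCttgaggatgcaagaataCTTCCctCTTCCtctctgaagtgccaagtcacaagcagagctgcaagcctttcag
Gp9: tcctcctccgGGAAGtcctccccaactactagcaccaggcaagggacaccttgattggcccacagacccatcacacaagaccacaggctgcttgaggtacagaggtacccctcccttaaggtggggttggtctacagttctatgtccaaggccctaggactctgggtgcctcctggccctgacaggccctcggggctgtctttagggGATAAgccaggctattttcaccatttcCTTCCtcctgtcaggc
Gp1bb: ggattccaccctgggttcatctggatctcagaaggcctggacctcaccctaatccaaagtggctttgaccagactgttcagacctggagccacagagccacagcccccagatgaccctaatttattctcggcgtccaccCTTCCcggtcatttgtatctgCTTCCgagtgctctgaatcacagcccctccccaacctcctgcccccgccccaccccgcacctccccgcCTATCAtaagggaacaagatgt

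The Gp1ba window held 3 GATA words, between 18 and 103 bases before the start, and ETS words 12 and 160 bases before it. The Gp5 window also held 3 GATA words, between 73 and 115 bases before the start, with ETS words 44 and 51 bases before it. The windows of Gp9 and Gp1bb held 1 GATA word each, 39 and 17 bases before the start, and 2 ETS words each. Of the 8 members with a promoter, 5 had a GATA word, 7 an ETS word and 4 both, against 31.7%, 64.1% and 19.0% of all 32851 promoter windows of 250 bases. The letters CTG of an E-box followed by GATA, an arrangement like the composite element of TAL1 and GATA-1, were searched on both strands and found in 1 member, Pf4, with 8 bases between them. Of all windows 1.91% held them at that spacing and 2.19% with 7 bases between. These words can overlap each other. A match of letters is a description and not a site shown to be bound. The words were chosen after these sequences were seen, so the counts beside the shares of all windows are no test. The only GATA word of Gp1bb is the variant TGATAG. A link between the words and the members' ratios was not tested.

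Lmo2 read 1735 and 1573 units of normalised signal in the LMO2 siRNA arm against 6114 and 6361 in the control arm, and was called lower (log2 ratio -1.92 ± 0.14, SD, n = 2; limma adjusted p = 3.6e-21). Normalised signal is the spot intensity after background correction with an offset of 50 and loess, and every ratio is LMO2 siRNA over control, as mean ± SD of 2 arrays. Per dye and array, the share of spots well above background ran from 55.8% to 68.2%. The lowest normalised signals well above background were 73.4 and 77.3 units in Cy3 and 62.4 and 67.5 in Cy5. The arrays' log2 ratios also differed with a spot's row. The median over the last rows exceeded that over the first rows by 0.19 and 0.16, with the array of 532 rows split at its middle, and after division by the scanner's factor for position the difference was -0.05 and -0.07. Values are therefore given as fitted, with position correction, and from the scanner's processed signals.

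Among the 10 members, the ligand-binding subunit gene Gp1ba was 2.26-fold higher with LMO2 siRNA, and Rab27b (1.88-fold), Gp5 (1.54-fold), Plek (1.41-fold) and Treml1 (1.23-fold) were also called higher. Gp9 was called lower (1.24-fold), and Gp1bb, Itga2b, Pf4 and Vwf passed in neither direction. That is 5 of 10 higher and 1 lower in limma, where 24.5% of all genes were called higher, 27.4% lower and 51.9% in either direction. Limma called 4 members higher in each of the 3 sets of values (Gp1ba, Gp5, Rab27b and Plek) and 1 lower (Gp9), against 5.33% and 2.43% of all genes, or 7.76% in either direction. The median log2 ratio of the members was 0.21, and of all genes -0.02. With 28 prior and 1 residual degrees of freedom, a limma p rests mostly on variance pooled over genes. In these bulk samples more cells of a megakaryocytic kind and more RNA per cell cannot be told apart.

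**Figure D1:**
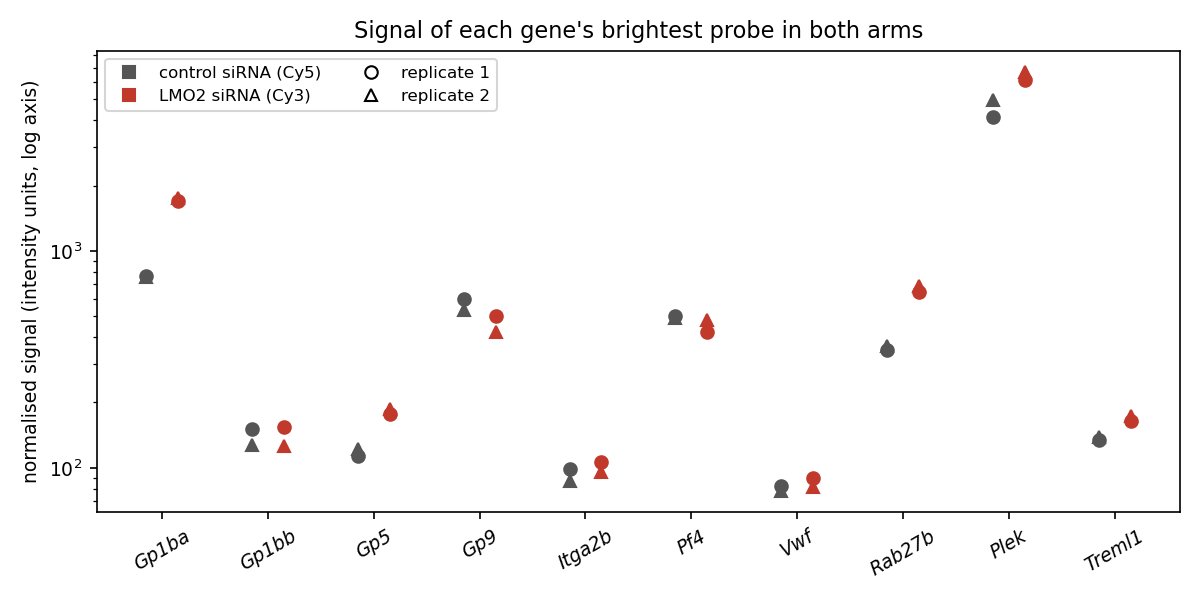
Normalised signal (intensity units, log axis) of the brightest probe of each of the 10 genes; grey is control siRNA, red is LMO2 siRNA, circles are replicate 1 and triangles replicate 2. For Gp1ba, Gp5, Rab27b, Plek and Treml1 both red points lie above both grey points, and for Gp9 and Pf4 both lie below. No share of all genes separated in this way is given, so this only describes the picture. Levels of different probes cannot be compared.

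Gp1ba, which carries the binding site for von Willebrand factor, gave the largest log2 ratio of the 10 as fitted. Its probe read 1693 and 1759.9 units with LMO2 siRNA and 764 and 760.2 with control siRNA. The arms did not overlap, and the arrays differed far less within an arm than the arms did from each other. The log2 ratios were 1.15 and 1.21 (mean 1.18 ± 0.05, 95% interval 1.06 to 1.29; limma adjusted p = 1.2e-16). Position correction gave 1.11 ± 0.06 and processed signals gave 1.17 ± 0.07.

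Gp5, the leucine-rich repeat subunit that thrombin cleaves, read 177 and 186 units against 114 and 122 in the control arm. Both LMO2 siRNA values lay above both control values. The log2 ratio was 0.63 and 0.61 (0.62 ± 0.01, limma adjusted p = 1.4e-10). This is a dim probe, and its size depended on the processing. Position correction gave 0.77 ± 0.01, an offset of 10 in place of 50 gave 0.87 ± 0.04, and processed signals gave 1.31 ± 0.04, a 2.49-fold difference.

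Gp9, the small subunit needed for surface display of the complex, went the other way. It read 500.2 and 421 units with LMO2 siRNA and 603 and 536 with control siRNA, so that the highest LMO2 siRNA value lay below the lowest control value. The log2 ratio was -0.27 and -0.35 (-0.31 ± 0.05, limma adjusted p = 3.2e-05). The position-corrected value was -0.47 ± 0.03 and the value from processed signals -0.54 ± 0.03, both called lower.

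Gp1bb, the subunit linked to Gp1ba's product by disulfide bonds, read 154 and 126 units against 150.4 and 127. The arms overlapped, and the 2 arrays differed from each other more than the arms did. The log2 ratio was 0.02 ± 0.03, with a 95% interval of -0.10 to 0.13 (limma adjusted p = 0.84). Neither the position-corrected value (-0.09 ± 0.03) nor that from processed signals (-0.08 ± 0.06) passed. The septin gene Septin5, the neighbour just upstream of Gp1bb, was well above background in Cy3 on 1 of the 2 arrays. Its log2 ratio was -0.10 ± 0.01 (limma adjusted p = 0.14), with -0.24 after position correction (adjusted p = 0.0042) and -0.53 in processed signals (adjusted p = 0.070).

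The difference between subunits was seen on each array. The log2 ratio of Gp1ba exceeded that of Gp9 by 1.42 on replicate 1 and 1.56 on replicate 2 (1.49 ± 0.10), and that of Gp1bb by 1.11 and 1.22 (1.16 ± 0.08). Gp5 exceeded Gp9 by 0.90 and 0.96 (0.93 ± 0.04). The lowest value of these 3 differences over position correction, processed signals and median centring was 0.80, for Gp1ba against Gp1bb. The order of Gp1ba and Gp5 was not fixed in this way: Gp1ba exceeded Gp5 by 0.56 ± 0.06 as fitted and was below it by 0.14 ± 0.10 in processed signals. These pairs were picked after the values were known and have no test.

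Itga2b, the defining integrin of the lineage, read 107 and 95.8 units with LMO2 siRNA and 99.1 and 87.1 with control siRNA. Each array had the higher value in the LMO2 siRNA arm, but the arms overlapped across arrays. The log2 ratio was 0.12 ± 0.02 with a 95% interval of 0.01 to 0.24, and it missed the threshold after adjustment over all genes (limma adjusted p = 0.068). With position correction it was called higher at 0.31 ± 0.04 (limma adjusted p = 0.0011), and with an offset of 10 at 0.21 ± 0.05 (adjusted p = 0.014). In processed signals it was 0.55 ± 0.21 (adjusted p = 0.062). Net intensities over local background were 33.9 and 23.6 in Cy3 and 54.0 and 29.8 in Cy5, so the probe was dim in all 4 channels. Itgb3, the partner of Itga2b, had a log2 ratio of 0.03 ± 0.20 and passed in neither direction (limma adjusted p = 0.75).

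Pf4, the chemokine platelet factor 4, read 422 and 482 units against 499 and 488. The LMO2 siRNA values lay below the control values, but the arrays did not give 1 size: the log2 ratio was -0.24 on the first array and -0.02 on the other (-0.13 ± 0.16, limma adjusted p = 0.071). With position correction the sign turned, to 0.04 on replicate 1 and 0.39 on replicate 2 (0.21 ± 0.25, limma adjusted p = 0.042), and processed signals gave 0.20 ± 0.27 (adjusted p = 0.31). The Pf4 probe sits in row 34 of 532, and no direction is given for this gene.

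Vwf, the ligand of the glycoprotein complex and also a gene of endothelial cells, had 3 probes, of which 1 passed the filter. That probe read 90.0 and 81.8 units against 82.2 and 77.9, close to the lowest signals well above background. Its log2 ratio was 0.10 ± 0.04 (limma adjusted p = 0.14), with -0.07 ± 0.03 under position correction. With an offset of 10 it was called higher, at 0.19 ± 0.08 (adjusted p = 0.023). The control arm's highest value exceeded the lowest of the LMO2 siRNA arm. A Vwf probe named by file symbol only read 48.1 units of mean Cy3 intensity on replicate 1 and 413 on replicate 2, where the local background around it was 240.0 in place of 41. It did not pass the filter, and no ratio is given for it.

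Treml1, whose product TLT-1 moves to the surface of activated platelets, read 164 and 174 units with LMO2 siRNA and 135 and 139 with control siRNA. The arms did not overlap, and the gene was called higher at 0.30 ± 0.02 (limma adjusted p = 4.1e-05). With position correction the ratio was 0.11 ± 0.06 (adjusted p = 0.11) and in processed signals 0.28 ± 0.10 (adjusted p = 0.091). Its call is therefore lost in both.

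Rab27b, a GTPase of granule transport, read 649.7 and 686 units with LMO2 siRNA against 347 and 363 with control siRNA. The arms stood well apart, and the log2 ratio was 0.90 and 0.92 (0.91 ± 0.01, limma adjusted p = 3.0e-14). With position correction the value was 0.84 ± 0.01, and processed signals gave 0.98 ± 0.0013. The other 2 probes of Rab27b did not pass the filter: of their 8 channel readings 1 was well above background. The result rests on 1 probe.

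Plek was the member measured by 2 passing probes. Its brighter probe read 6146 and 6703 units with LMO2 siRNA and 4154 and 4954 with control siRNA, and the arms did not overlap. The log2 ratio was 0.57 and 0.44 (0.50 ± 0.09, limma adjusted p = 1.6e-08). The dimmer probe gave 0.79 ± 0.04 (adjusted p = 2.0e-08 over all probes). With position correction the probes read 0.74 ± 0.05 and 0.87 ± 0.02, and in processed signals 0.74 ± 0.05 and 0.88 ± 0.02, so both were above 0 in each set of values. With median centring in place of loess the brighter probe turned to -0.19 ± 0.21 (limma adjusted p = 0.092), where the median of all genes was -0.40, and the dimmer probe read 0.14 ± 0.08.

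**Figure D2:**
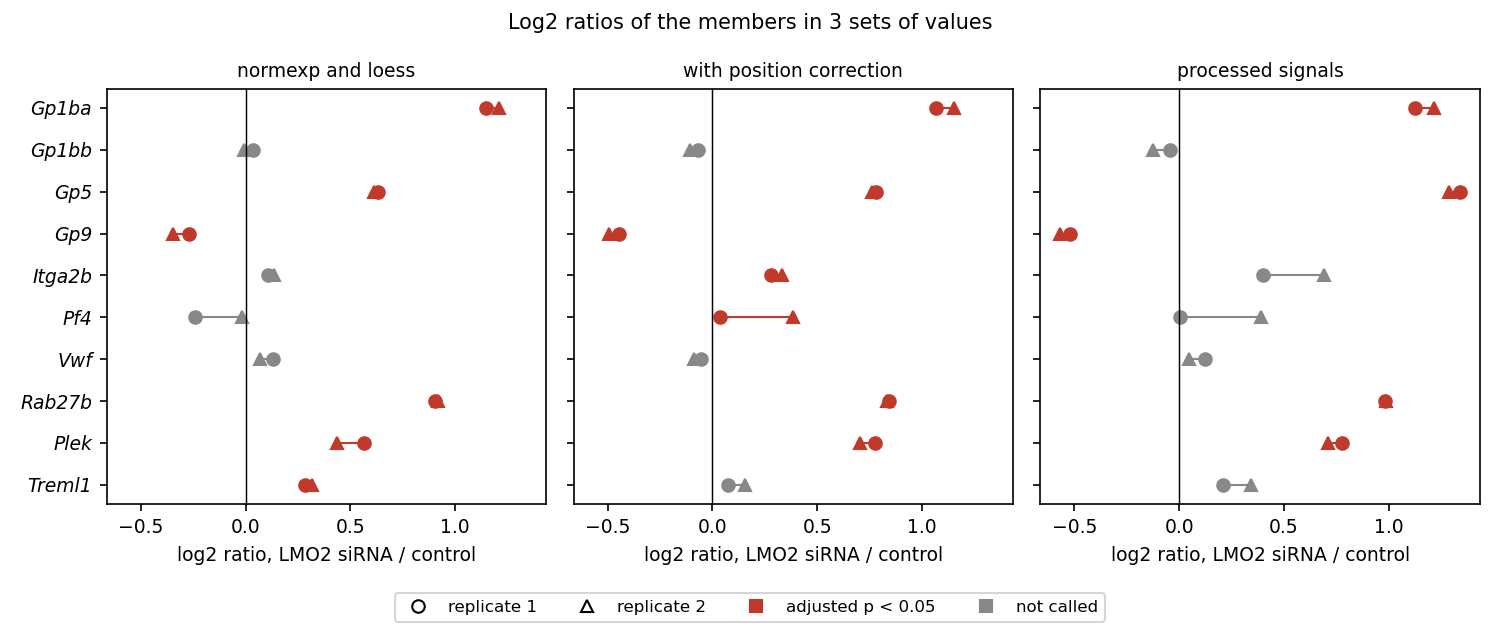
Log2 ratio of LMO2 siRNA over control siRNA for the 10 genes, with normexp and loess (left), with position correction (middle) and from the scanner's processed signals (right). Circles are replicate 1, triangles replicate 2, and red marks a limma adjusted p under 0.05; Gp1ba, Gp5, Rab27b and Plek are red and right of 0 in all 3 panels and Gp9 is red and left of 0, while Pf4 changes side.

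With position correction 6 members were called higher and 1 lower, against 24.1% and 20.5% of all genes (44.6% in either direction), with Itga2b and Pf4 added and Treml1 lost. In processed signals 4 were called higher and 1 lower, against 6.82% and 3.42% (10.2% in either direction). Median centring moves the median of all genes to -0.40. It left 3 members called higher (Gp1ba, Gp5 and Rab27b) and 2 lower (Gp9 and Pf4), against 2.97% and 64.5% of all genes (67.5% in either direction). The centred ratios were 0.60 for Gp1ba, 0.42 for Rab27b, 0.38 for Gp5, 0.07 for Itga2b, -0.19 for Plek, -0.62 for Pf4 and -0.81 for Gp9.

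The effect of position correction followed the members' rows. The 5 passing probes in rows 34 to 160, for Pf4, Plek, Itga2b and Gp5, shifted by 0.07 to 0.40 per array. The 6 in rows 289 to 497, for Rab27b, Gp1ba, Gp1bb, Gp9, Vwf and Treml1, shifted by -0.21 to -0.06. The genes that rose in all 3 sets of values lay in both groups of rows, with Plek and Gp5 in rows 90 and 113 and Rab27b and Gp1ba in rows 289 and 340.

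**Figure D3:**
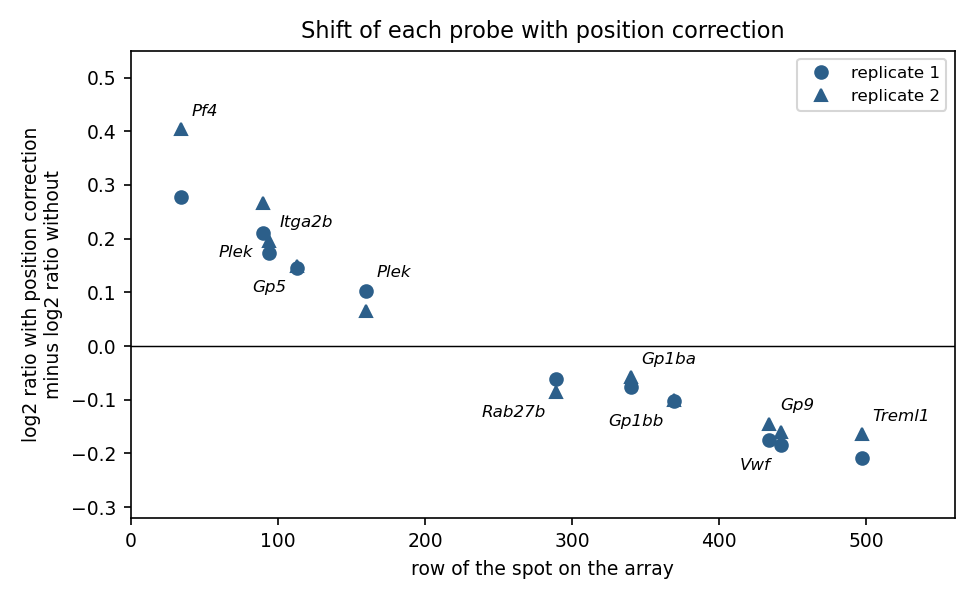
Change of the log2 ratio on applying the scanner's position factor, by row of the spot on the array, for the 11 passing probes; circles are replicate 1 and triangles replicate 2. Probes in rows 34 to 160 lie above 0 and those in rows 289 to 497 below 0.

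Other platelet surface genes were mixed. Beside the counts of this list and the later ones stand the shares of all genes, 24.5% higher and 27.4% lower as fitted. They were 6.82% and 3.42% in processed signals, 2.97% and 64.5% with median centring, and 5.33% and 2.43% with all 3 sets of values. The 14 tested had a median of 0.01, with 5 called higher, 1 lower and 8 in neither direction. P2rx1, an ATP-gated channel of platelets, was 3.03-fold higher (1.60 ± 0.0036, limma adjusted p = 7.2e-20), and the ADP receptor gene P2ry1 was higher by 0.61 ± 0.01. Another P2ry1 probe read 0.29, and with median centring P2ry1 read 0.14 and was not called. The adrenergic receptor gene Adra2a (0.41 ± 0.10) and the tetraspanin gene Cd151 (0.29 ± 0.11) were called higher too, but read -0.22 and -0.28 with median centring and were not called in processed signals. Other Adra2a probes read 0.14 and 0.15. Of the 27 genes on the list, 10 were below background in all 4 channels, among them Clec1b, Cd9 and Cd36.

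Among 6 tested genes of granule cargo, 2 were called higher and 2 lower (median -0.07). Pdgfa, a platelet growth factor gene, fell by 0.29 ± 0.05. Srgn, the granule proteoglycan serglycin, had a ratio of -0.33 ± 0.03, called lower, and of -0.03 after position correction. Tgfb1 was called higher at 0.14 ± 0.10 and read -0.49 with median centring. Ppbp, another platelet chemokine gene, was below background in all 4 channels.

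Granule biogenesis and secretion genes, the machinery that Rab27b belongs to, had 14 of 28 called higher, 3 lower and 11 neither (median 0.14). Of all genes 24.5% were called higher and 27.4% lower. With median centring the list had 22 called lower and 0 higher in limma, with 1 higher at an unadjusted p under 0.05. Snap23, a membrane fusion protein of platelet secretion, was higher by 0.70 ± 0.04, and its other probes read 0.14 and 0.56. With median centring Snap23 read 0.01 and was not called. Hps1 (0.46 ± 0.16) and Dtnbp1 (0.34 ± 0.03), genes of dense granule biogenesis, were called higher, although another Dtnbp1 probe read -0.12, and Dtnbp1 read -0.36 with median centring. Neither was called in processed signals. Hps5, of the same pathway, had -0.52 ± 0.08, called lower, and -0.07 after position correction. With all 3 sets of values 2 of the 28 were called higher, against 5.33% of all genes.

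Of the megakaryocyte transcription factors, 10 of 23 passed as higher and 7 as lower as fitted (median 0.01). In processed signals limma called 7 higher and 0 lower, with 5 lower at an unadjusted p under 0.05, so the 7 lower calls did not hold there. Lyl1 (1.60 ± 0.14), Mrtfa (1.12 ± 0.02), which encodes a coactivator of SRF, and Myb (0.81 ± 0.10) were higher, with 0.12 for another Mrtfa probe and 0.15, 0.42 and 0.52 for other Myb probes. Gfi1b was called lower as fitted (-0.83 ± 0.06) and with position correction (-0.44), but not in processed signals (-0.41, limma adjusted p = 0.051). With all 3 sets of values 6 of the 23 were called higher, Lyl1, Mrtfa and Myb among them. A further gene of the list, with a saturated probe, is given no fold.

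Integrin and glycoprotein signalling genes had 13 of 31 called higher, 4 lower and 14 neither (median 0.05). In processed signals limma called 7 higher and 0 lower, with 2 lower at an unadjusted p under 0.05. The counts were 6 higher and 20 lower with median centring. Rgs18, a regulator of G protein signalling, was higher by 1.48 ± 0.01. The adaptor genes Fyb (1.25 ± 0.02) and Lcp2 (1.22 ± 0.21), which encode partners in signalling from platelet receptors, were 2.37-fold and 2.34-fold higher, and Ywhaz, a 14-3-3 protein that binds the tail of the Gp1ba product, was higher by 1.22 ± 0.02. Other Fyb probes read -0.03 and 1.10, and other probes of Rgs18 and Ywhaz read 1.33 and 0.58.

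The 25 megakaryocyte cytoskeleton genes had a median of 0.19, and of these 15 passed as higher and 4 as lower as fitted. The counts were 6 higher and 1 lower in processed signals, and 2 higher and 19 lower with median centring. The largest ratios were those of Gsn (2.67 ± 0.16), Rac1 (1.30 ± 0.09), Capg (0.78 ± 0.04) and Flna (0.71 ± 0.07). Flna encodes filamin A, which anchors the GPIb complex to actin. Another Rac1 probe read -0.15, other Flna probes read -0.06 and 0.41, and 3 of the 25 genes had saturated probes. With median centring Capg read 0.20 and Flna 0.15 and neither was called, while Gsn and Rac1 still were. With median centring the medians of the 6 related lists ran from -0.17 for surface genes to -0.45 for cytoskeleton genes, against 0.05 for the members and -0.40 for all genes.

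**Figure D4:**
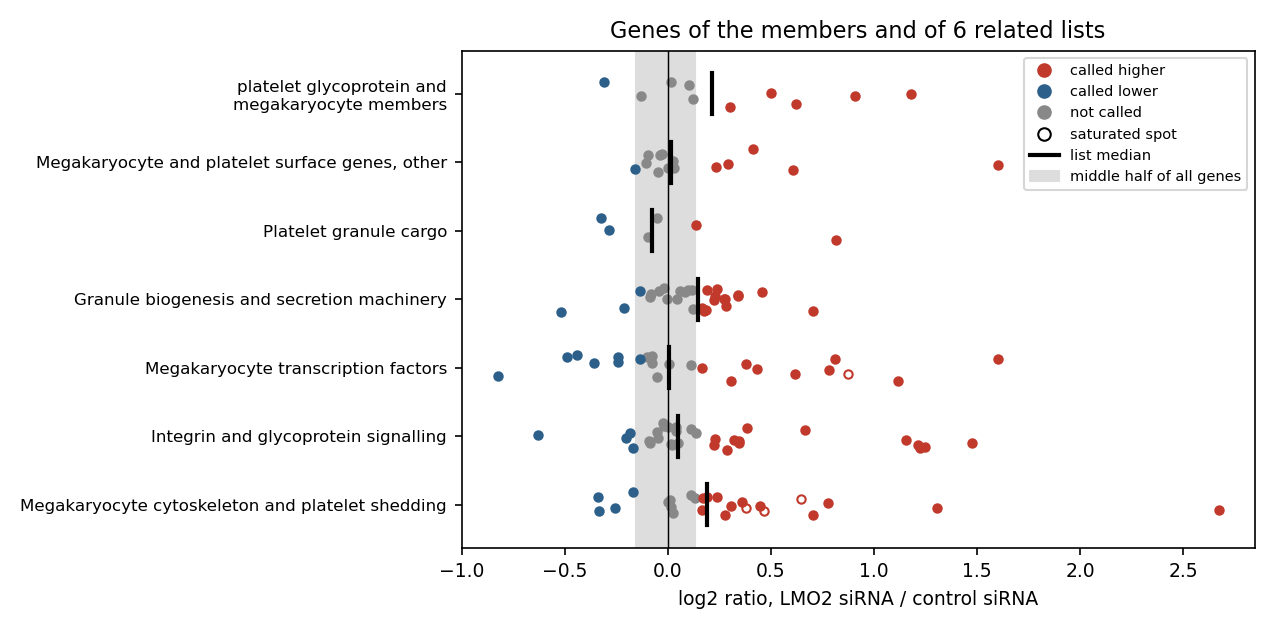
Log2 ratio of LMO2 siRNA over control siRNA for each tested gene of the members and of 6 related lists; red is called higher, blue called lower, grey not called, open circles have a saturated spot, bars are list medians and the band runs from the lower to the upper quartile of all genes (-0.15 to 0.13). The band shows the spread of single genes and is no measure for a median. Each list has genes on both sides of 0, with list medians from -0.07 for granule cargo to 0.21 for the members.

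Markers of other cell types were measured beside these results. All 19 erythroid markers on the array had a probe well above background in all 4 channels, as did 13 of 15 megakaryocyte markers, with Clec1b and Ppbp below background throughout. Of 19 erythroid markers tested, 6 were called higher and 8 lower (median -0.08), 3 of the 19 with saturated probes. Icam4 was higher by 0.79 ± 0.07, and Hemgn (-0.51 ± 0.04), Slc4a1 (-0.49 ± 0.03) and Sptb (-0.46 ± 0.18) were called lower. With median centring Icam4 read 0.11 and was not called. Other probes read -0.70 and -0.06 for Hemgn, and -0.08 and 0.52 for Sptb. The 8 lower calls became 1 in processed signals, where neither Slc4a1 (adjusted p = 0.061) nor Sptb (adjusted p = 0.14) passed in limma, and with the mean of probes the Sptb log2 ratio was -0.0068. The summed normalised signal of the 19 erythroid markers, saturated ones included, was 434926 and 410871 units with LMO2 siRNA against 293425 and 280784 with control siRNA. The summed normalised signal of the 13 tested megakaryocyte markers was 24705 and 24454 units with LMO2 siRNA against 19972 and 22527 with control siRNA. These 13 include all 10 members, so the sum is no separate measure of the lineage. The members alone summed to 10102.5 and 10715.3 units with LMO2 siRNA against 6948.2 and 7653.7 with control siRNA.

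Among 9 mast cell and basophil markers tested, 4 were called higher and 5 neither, and their summed signal was 2878 and 2834 units against 2193 and 1899. Hdc, which makes histamine, was higher by 1.22 ± 0.08, Mitf by 0.38 ± 0.27 (-0.20 with median centring, and not called in processed signals) and the mast cell protease gene Cpa3 by 0.37 ± 0.13. Tpsab1, counted among the 4, was not well above background in Cy5 on either array and passed the filter through Cy3 alone. Its fitted ratio was 1.20-fold, and it was not called in processed signals (limma adjusted p = 0.052). Of 8 granulocyte and macrophage markers, 2 were called higher, Cd68 (0.55 ± 0.05) and Ltf (0.16 ± 0.02), while Csf1r (-0.12) and Itgam (-0.09) did not pass, and Adgre1, Elane, S100a8 and S100a9 were below background in all 4 channels. Their summed signal was 867 and 895 units against 837 and 871.

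Of the 13 endothelial markers on the array, Cdh5, Kdr, Tie1, Emcn and Robo4 were below background in all 4 channels. Among the 6 tested, Egfl7 was called lower at -0.42 ± 0.09 (-0.06 with position correction), and Nos3 (0.13), Esam (-0.10) and Sox17 (-0.07) did not pass; summed signals were 6710.2 and 5430.4 units against 8445 and 7390.1. Of 7 lymphocyte markers, Cd3e (-0.34 ± 0.14) and Dntt (-0.23 ± 0.07) were called lower, and Cd79a (-0.06) did not pass, with sums of 812 and 765 units against 924 and 825. The part of any of these cell types in the members' values was not tested.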

How the data were processed

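The arrays were read with Agilent Feature Extraction 9.1.3.1, using a local background, per the file headers. Deposited spot values are intensity on a linear scale. Per the file headers, the authors' scanner software made processed signals by background subtraction, a position step and dye normalization, and it lists a position ratio for each channel. Its deposited log10 ratios (red over green) equal the series' own table (median 0 on each array) to within 0.005, which settles its scale and direction. No source used here names the genome build of the array design. Both arrays share a slide and a scan, so neither could be tested as a batch.

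Mean signals were corrected with normexp (offset 50) and loess in limma 3.58.1 (R 4.3.3), control spots at weight 0. Spots of 1 probe were averaged, giving 41174 probes. Of these, 24844 were named by RefSeq accession (a GRCm38.p6 gene table, names only), 9636 kept the file's symbol and 6694 have none. Probes had to be well above background in 1 or more channels of each array, and the brightest of these stands for its gene. Mean log2 ratios were tested against 0 with lmFit and eBayes, with Benjamini-Hochberg adjustment over 14314 genes at 0.05. Outlier-flagged spots were kept, and no member spot was flagged. Tested on simulated data for these 14314 genes, 100% of 100 genes changed 1.5-fold and 100% of 100 changed 2-fold were recovered, with 29 false calls. The simulated noise was normal, independent between genes and drawn from the fit's own pooled variance. It held no dye effect and no drift by row. The simulation therefore checks the fitting steps and cannot tell how many calls on the real arrays are false.

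The 10 members are always named, with Lmo2, Septin5 and up to 4 unsaturated genes of largest absolute ratio from each other list. Of these, 2 genes are not reported here. Itgb3 and the genes named as below background were chosen after their values were seen. Members, lists and alternatives were chosen with earlier results of these data known. The rule over 3 sets of values leaves out genes with saturated spots, and the promoter words were chosen after the sequences were seen.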

Additional observations from a re-analysis of the deposited data

How the results depend on the processing

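Genes called higher numbered 3509 as fitted, 976 in processed signals, 898 in the series' own table, 425 with median centring and 290 with a 1.5-fold minimum. Genes called lower numbered 3923, 489, 425, 9239 and 47 in that order. Tested by itself, each probe counted, 5338 probes were called higher and 6028 lower. Members called higher were 3 and members called lower 2 with median centring, in place of 5 and 1. With a 1.5-fold minimum 2 were called higher (Gp1ba and Rab27b) and 0 lower in limma, where 0 were lower at an unadjusted p under 0.05. A value called in either setting changed sign for Pf4 (0.21 with position correction) and Plek (-0.19 with median centring). Without a call on either side, signs also turned for Gp1bb (-0.09 with position correction, -0.08 in processed signals and the series' own table, -0.20 with median centring). The same held for Pf4 (0.20 in processed signals and the series' own table) and Vwf (-0.07 with position correction and without a filter). It also held for Esam (0.0057 with position correction) and Cd79a (0.0046 with median centring). Among other named genes, median centring turned Adra2a (-0.22), Cd151 (-0.28), Tgfb1 (-0.49), Dtnbp1 (-0.36) and Mitf (-0.20), and position correction turned Sox17 (0.22) and Dntt (0.0038). The cause was not tested. Without that filter Vwf is read from another probe. A single array gives values with no test, and no called member changed sign on either array alone. The test of ratios within each array already pairs the arms, since each array holds both. With 1 group of arrays no further pairing was possible. Signal over background limits Itga2b, Vwf, Gp5, Gp1bb and Treml1.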
